A study of Mus musculus with 4 samples.

Results

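The genes described here encode the enzymes of glycolysis and of the pentose phosphate pathway, the enzymes that set the fate of pyruvate, and a group of hypoxia genes, 35 named genes in all. The rule for choosing them was a list of names. The array annotation held 29 of them, among 8252 genes with a symbol of their own, and gave them 44 of the 12488 probe sets. Hk3, Gpi1, Eno1, G6pdx, Egln3 and Ero1l were not found under these symbols and are not analysed here. Of the 44 probe sets, 34 (27 genes) were bright enough to be tested, 4 were too dim, and 6 were array control probe sets of Gapdh. The cells were macrophages of female BALB/c mice aged 6 to 8 weeks, drawn into the peritoneal cavity by 2 ml of 3% thioglycolate, an irritant, and harvested 4 days later. Both groups spent a night in serum-free RPMI medium, one with PBS and the other with porcine TGFb2, a transforming growth factor (5 ng, with no volume stated). The adherent cells, which the labels give as over 95% F4/80+, were lysed for RNA, and each group had 2 arrays. Neither the pooling of animals nor separate cultures are stated, so the p-values rest on the spread between arrays that may be technical repeats. The RNA is that of a whole cell sample, in which fewer cells of a type and less RNA per cell cannot be told apart.

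Glycolysis converts glucose to pyruvate. Hexokinases trap the sugar, phosphofructokinases commit it, aldolase splits it, and the lower enzymes make ATP. Lactate dehydrogenase then turns pyruvate into lactate, whereas pyruvate dehydrogenase sends it to the mitochondria, and the pentose phosphate pathway diverts glucose phosphate to NADPH and ribose. Hif1a encodes the oxygen-regulated subunit of the transcription factor HIF-1, for which many glycolytic genes are classical targets, and macrophages are known to lean on glycolysis when they are activated by inflammatory signals.

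The values were MAS5 signals, linear probe set intensities with the same trimmed mean on all 4 arrays, and differences are TGFb2 minus PBS on the log2(signal + 15) scale, which understates the change of dim genes. Signals of different probe sets cannot be compared with each other. Arrays correlated at 0.979 (PBS) and 0.968 (TGFb2) within groups and at 0.954 to 0.966 between groups. Some macrophage markers were bright, such as Cd68 at 6377.8 and 5851.0 in PBS and 7363.0 and 6991.3 in TGFb2. Of the 10 tested macrophage markers 6 were higher and 4 lower with TGFb2, and 0 passed the test (limma). The lower ones were Mrc1 (-0.47), Cd14 (-0.19), Lyz2 (-0.10) and Adgre1 (-0.05). At an unadjusted p under 0.05 (limma) 5 were higher and 0 lower, against 341 and 337 of all 5639 tested genes. The markers' summed signal, which the brightest probe sets dominate, was 15946 to 16795 in PBS and 17851 to 18286 in TGFb2. It was thus higher with TGFb2, as were the signals of several glycolytic genes. The fibroblast and mesothelium list summed to 1809.5 to 2540.7 in PBS and 1909.9 to 2243.8 in TGFb2. With each gene taken by its brightest tested probe set, 3 of its 11 tested genes rose (Fbln2, Col1a1 and Col5a2), 1 fell (Dcn), and 5 were too dim to test. By a dimmer probe set Col1a2 rose too (1.86, limma adjusted p = 0.0175). The neutrophil list summed to 769.3 to 1000.5 and 1364.9 to 1427.3, with 1 of 6 tested genes (S100a8) risen. A dimmer probe set of Csf3r in that list rose as well (1.75, limma adjusted p = 0.0148), whereas its brightest one differed by -0.15. Of the T and NK cell list 8 of 9 genes were too dim to test, and in the B cell, mast cell and eosinophil, dendritic cell and red cell lists 0 tested genes passed (limma; 1 was under an unadjusted p of 0.05, in the mast cell and eosinophil list). The part of any of these markers in the results below was not tested.

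No member changed past the threshold. At an adjusted p of 0.05 (limma, Benjamini-Hochberg over all 7453 tested probe sets), 0 of the 34 member probe sets were called, against 88 probe sets, or 1.18%, in the whole table (0.818% higher and 0.362% lower). The members' smallest adjusted p was 0.116, for Hk1. At an unadjusted p of 0.05, 6 members stood below it, 5 higher and 1 lower with TGFb2, against 11.6% of all tested probe sets (5.77% higher and 5.86% lower). In 17 members both TGFb2 signals lay on one side of both PBS signals, 11 above and 6 below. The same held for 42.8% of all tested probe sets, 21.1% above and 21.7% below. With 2 arrays a group, an exact permutation test of a single gene cannot give a two-sided p under 0.333. In simulated data of this size the fit called 37.55% of 2-fold changes, so 0 calls do not show that the members were unchanged.

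The differences of the members were small. With each gene taken by its brightest tested probe set, 16 genes were higher and 11 lower with TGFb2, with a median log2 difference of 0.13, against 0.00 over all 5639 tested genes. The members' median was 0.24 without TGFb2 replicate 2, 0.086 without TGFb2 replicate 1, 0.074 after quantile normalization, 0.058 after cyclic loess, 0.087 with the filter at the 60th percentile and 0.057 when all probe sets of a gene were averaged. The largest differences were 0.70 for Aldoc and -0.61 for Hk1, and 0 members reached a 2-fold difference without overlap, against 2.29% of all tested probe sets. The 95% interval lay within a 2-fold change in either direction for 28 of the 34 members (82.4%), against 82.8% of all tested probe sets. For these 28 the interval held only changes smaller than 2-fold. By step of the pathway, the median difference was 0.30 in upper glycolysis, 0.13 in lower glycolysis, 0.13 in the pyruvate branch, -0.37 in the pentose phosphate pathway and 0.07 among the hypoxia genes. These medians rest on 9, 5, 4, 3 and 6 genes. The pentose phosphate median ran from -0.65 without TGFb2 replicate 2, through -0.56 without PBS replicate 1 and -0.18 without PBS replicate 2, to -0.084 without TGFb2 replicate 1. The hypoxia median turned to -0.11 without TGFb2 replicate 1, and was 0.16 without TGFb2 replicate 2 and 0.024 with probe sets averaged. The plot of differences with intervals shows every tested member in this order.

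**Figure D1:**
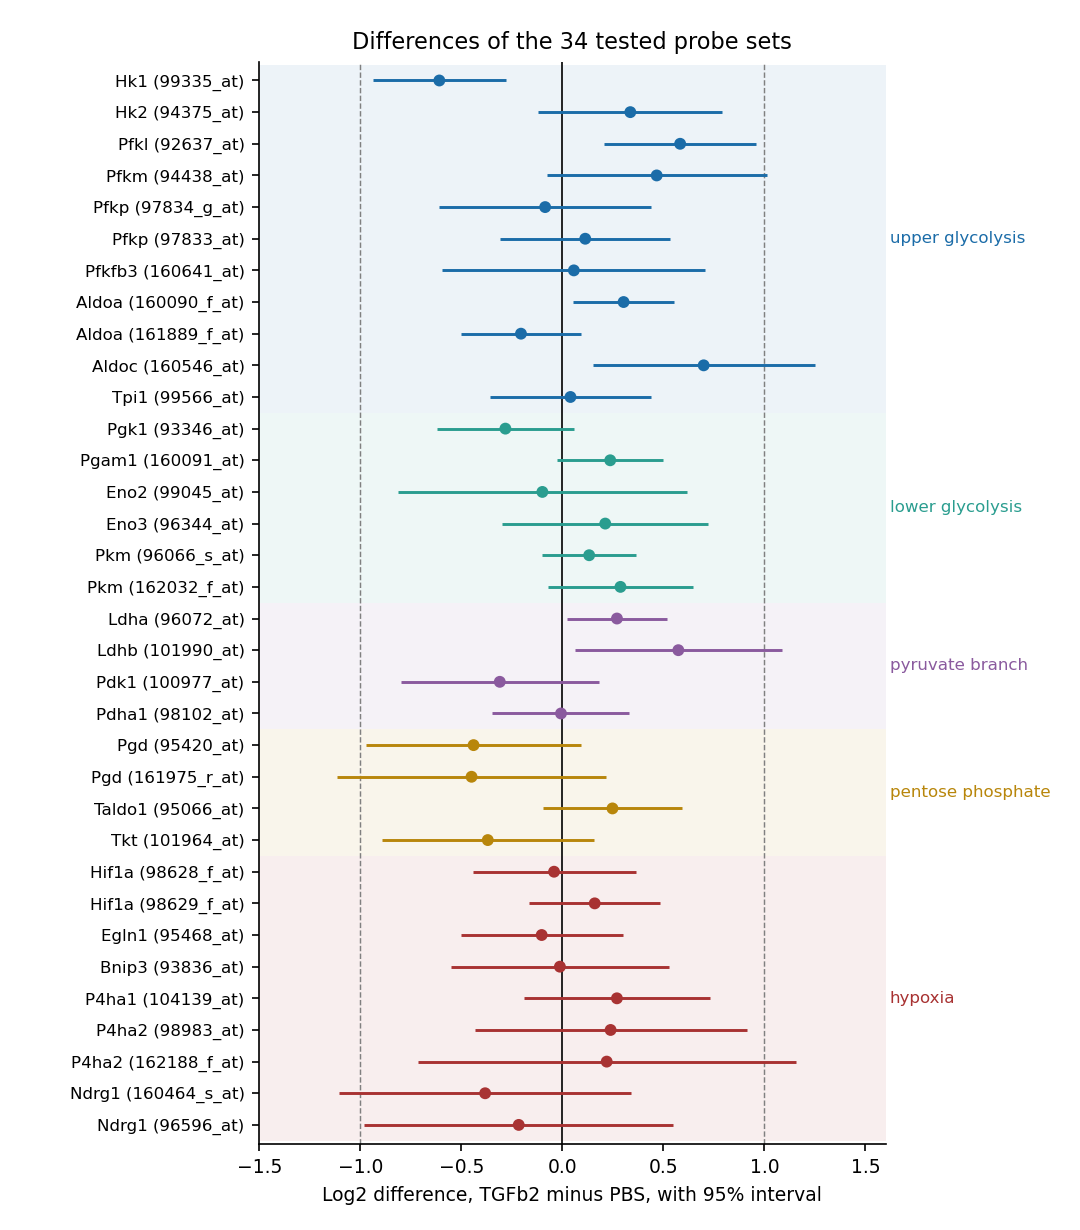
Log2 difference of TGFb2 minus PBS (x axis) for the 34 tested member probe sets (y axis, grouped by step), with points for the limma estimates bars for their 95% intervals and dashed lines at 2-fold; 2 arrays per group. The intervals of Hk1 (below 0) and of Pfkl, Aldoc, Ldhb, Ldha and the brighter Aldoa probe set (above 0) do not cross the zero line, and no member passed the adjusted threshold.

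Promoter sequences are shown for Hk1 and Pfkl, the members with the smallest adjusted p in each direction. They are also shown for Pgk1 and Ldha, glycolytic genes long known as HIF-1 targets. The estimates of Pgk1 and Ldha had opposite signs here, but the Pgk1 interval included 0 and neither gene passed the threshold. Each sequence is the RefSeq GRCm38.p6 window from 250 bases before to 50 after an annotated start, read 5′ to 3′ on the gene's strand. Capitals mark the letters ACGTG or GCGTG on either strand (CACGT or CACGC when read on the other), the core of the sequence that HIF-1 is known to bind. The Hk1 window is chr10:62340372-62340671 on the minus strand, Pfkl is chr10:78009758-78010057 on the minus strand, Pgk1 is chrX:106186850-106187149 on the plus strand and Ldha is chr7:46845554-46845853 on the plus strand.
Hk1: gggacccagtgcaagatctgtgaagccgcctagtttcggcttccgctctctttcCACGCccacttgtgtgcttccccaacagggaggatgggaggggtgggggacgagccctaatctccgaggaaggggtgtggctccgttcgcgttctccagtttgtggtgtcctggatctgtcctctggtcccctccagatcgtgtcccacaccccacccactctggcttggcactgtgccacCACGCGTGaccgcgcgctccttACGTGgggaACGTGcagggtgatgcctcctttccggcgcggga
Pfkl: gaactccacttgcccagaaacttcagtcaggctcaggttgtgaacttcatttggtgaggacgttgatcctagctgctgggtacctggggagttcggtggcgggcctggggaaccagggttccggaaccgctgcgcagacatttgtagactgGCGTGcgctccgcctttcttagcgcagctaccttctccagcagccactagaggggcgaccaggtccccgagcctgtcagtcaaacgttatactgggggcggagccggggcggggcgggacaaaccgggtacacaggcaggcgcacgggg
Pgk1: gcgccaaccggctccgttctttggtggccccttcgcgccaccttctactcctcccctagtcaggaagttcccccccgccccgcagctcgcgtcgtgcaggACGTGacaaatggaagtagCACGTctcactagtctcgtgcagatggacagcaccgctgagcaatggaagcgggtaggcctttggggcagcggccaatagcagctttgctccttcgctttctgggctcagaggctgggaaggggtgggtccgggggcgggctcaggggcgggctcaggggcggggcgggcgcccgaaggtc
Ldha: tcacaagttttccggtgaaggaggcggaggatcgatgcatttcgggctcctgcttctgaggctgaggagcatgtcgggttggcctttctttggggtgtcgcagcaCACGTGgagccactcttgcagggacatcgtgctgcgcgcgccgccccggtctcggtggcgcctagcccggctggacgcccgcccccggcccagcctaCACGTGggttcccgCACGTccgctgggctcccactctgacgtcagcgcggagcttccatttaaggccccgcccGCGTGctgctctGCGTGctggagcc
Counting each strand, so that overlapping letters such as CACGTG count once per strand, the windows hold 5 matches for Hk1, 1 for Pfkl, 2 for Pgk1 and 7 for Ldha. Hk1 and Ldha each have another annotated start, with 0 and 2 matches. Of the 40 promoters of 28 listed genes on the array that the table holds, 31 (77.5%) have a match, against 43.8% of all 32851 promoters of this length. The members' promoters are also richer in G and C, with a median of 61% against 52.7%. A match is a description of letters, and binding was not measured here.

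Upper glycolysis held the members with the largest differences in both directions. Hexokinase 1 (Hk1), the broadly expressed enzyme that phosphorylates glucose at the mitochondrial surface, had signals of 2156.1 on each PBS array and of 1554.9 and 1276.5 on the TGFb2 arrays. Both TGFb2 arrays were below both PBS arrays, at 0.66 of the PBS mean signal. The log2 difference was -0.61 ± 0.14 (SE, n = 2 arrays a group), with a 95% interval from -0.94 to -0.28 and a limma adjusted p of 0.116. Its promoter, printed above, was the window with 5 matches. Hexokinase 2 (Hk2), the inducible isoform and a classical HIF-1 target, had signals of 211.1 and 156.9 in PBS and of 244.0 and 224.3 in TGFb2. The groups did not overlap, the TGFb2 arrays being the higher, but the gap between the PBS arrays was of similar size to the difference of 0.34 (95% interval -0.12 to 0.79, limma adjusted p = 0.578). A further Hk2 probe set was too dim to test, at 0.5 to 3.5.

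Phosphofructokinase catalyses the committed step, and its liver-type subunit (Pfkl) had signals of 502.9 and 576.3 in PBS and of 753.5 and 879.4 in TGFb2. Both TGFb2 arrays were above both PBS arrays. The log2 difference was 0.58 ± 0.16 (SE), with a 95% interval from 0.21 to 0.96 (limma adjusted p = 0.187), and the mean signal was 1.51 times that of PBS. The muscle-type subunit (Pfkm) was dim, with 35.5 and 38.6 in PBS and 65.2 and 49.5 in TGFb2, again without overlap (0.47, 95% interval -0.08 to 1.01, limma adjusted p = 0.509). The platelet-type subunit (Pfkp) had 2 tested probe sets with opposite signs. One gave 268.1 and 185.4 in PBS and 184.5 and 237.8 in TGFb2, a difference of -0.08. The other gave 130.7 and 114.5 in PBS and 127.3 and 140.2 in TGFb2, a difference of 0.11. In both the groups overlapped (limma adjusted p = 0.930 and 0.868), so the isoforms of this enzyme did not share a pattern of separated groups. Pfkfb3, which makes the sugar bisphosphate that activates phosphofructokinase, had 48.4 and 46.8 in PBS and 68.0 and 36.1 in TGFb2. The TGFb2 arrays lay on either side of the PBS arrays, and the difference was 0.06 (95% interval -0.59 to 0.71, limma adjusted p = 0.967). Its other probe set was too dim to test, at 4.9 to 10.7.

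Aldolase splits the phosphorylated fructose. The brighter probe set of Aldoa, the main isoform outside liver and brain, had signals of 3825.7 and 4198.8 in PBS and of 5056.8 and 4843.8 in TGFb2, with no overlap and a difference of 0.30 (95% interval 0.05 to 0.55, limma adjusted p = 0.326). The other Aldoa probe set went the opposite way, with 1538.5 and 1600.0 in PBS and 1322.3 and 1397.9 in TGFb2. It too separated the groups, at -0.20 (95% interval -0.50 to 0.09, limma adjusted p = 0.611), so the direction for Aldoa depends on the probe set. Both belong to probe set types whose probes can match related transcripts. Aldoc, the isoform best known from brain, was dim, with 32.6 and 47.4 in PBS and 67.3 and 80.2 in TGFb2. The TGFb2 arrays were the higher, by 0.70 ± 0.24 (SE, 95% interval 0.15 to 1.25, limma adjusted p = 0.291), the largest difference among the tested members at this pseudocount. With a pseudocount 4 times as large it was 0.42, smaller in size than those of Hk1 (-0.59) and Pfkl (0.55). Triose phosphate isomerase (Tpi1), which interconverts the products, had 3487.9 and 3076.5 in PBS and 3994.8 and 2841.1 in TGFb2. The TGFb2 arrays enclosed the PBS arrays and the difference was 0.04 (limma adjusted p = 0.963), with a negative sign after quantile normalization (-0.04) and cyclic loess (-0.02). Of the 9 tested genes of upper glycolysis, 5 were higher without overlap (Hk2, Pfkl, Pfkm, Aldoa and Aldoc) and 1 lower (Hk1), against 1250 and 1221 of all 5639 tested genes. The median of this step was 0.06 when all probe sets of a gene were averaged, 0.17 with the filter at the 60th percentile and 0.14 without PBS replicate 2.

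**Figure D2:**
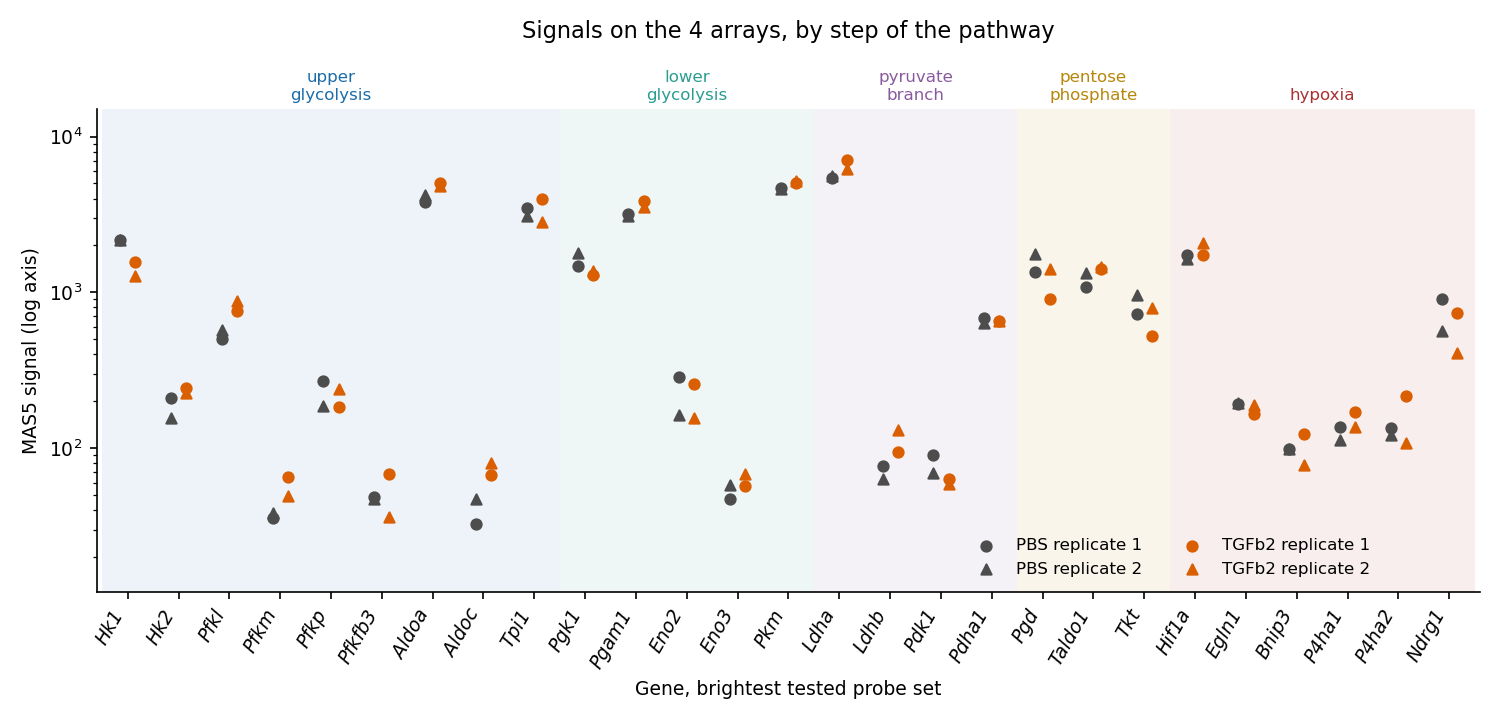
MAS5 signal (y axis, log scale) of the brightest tested probe set of 27 member genes (x axis, by step) on each of the 4 arrays, grey for PBS and orange for TGFb2, circles for replicate 1 and triangles for replicate 2. Both TGFb2 signals of Hk1 (1554.9 and 1276.5) sit below its PBS signals, those of Pfkl (753.5 and 879.4) sit above, and the Ndrg1 and Eno2 signals split by replicate in both groups.

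The first enzyme of lower glycolysis, Gapdh, which makes NADH, was measured by array control probe sets along the transcript. The 5′ probe set gave 7329.5 and 6760.9 in PBS and 9454.0 and 8619.1 in TGFb2. The middle one gave 6551.9 and 6500.0 in PBS and 7475.1 and 7781.9 in TGFb2. The 3′ one gave 5858.7 and 5660.8 in PBS and 6679.3 and 6698.5 in TGFb2. In all 3 probe sets both TGFb2 arrays were above both PBS arrays. The same held for the 3 beta-actin control probe sets of the mRNA strand. Their mean signals were 1.26 (5′), 1.18 (middle) and 1.20 (3′) times those of PBS, against 1.28, 1.17 and 1.16 for Gapdh. The 18S ribosomal RNA control probe sets went the other way, at 0.41 (5′), 0.70 (middle) and 0.35 (3′) times PBS. PBS replicate 2 was the highest array in each. For the 3′ one, signals were 247.7 and 1065.8 in PBS and 195.8 and 260.8 in TGFb2. The part of this array's 18S signal in the members' differences was not tested. When the Gapdh probe sets were added to the fit, a choice made after seeing the data, the differences were 0.36, 0.22 and 0.22 (limma adjusted p = 0.187, 0.399 and 0.433). They were 0.21, 0.04 and 0.12 after quantile normalization and 0.26, 0.13 and 0.13 after cyclic loess. The ratio of the 3′ to the 5′ signal, which is read as a sign of RNA and labelling quality, was 0.799 and 0.837 in PBS and 0.707 and 0.777 in TGFb2. For beta-actin it was 1.11 and 1.12 in PBS and 1.04 and 1.08 in TGFb2, so both ratios were lower with TGFb2, and their part in the members' differences was not tested. The 3 Gapdh probe sets for the opposite strand gave 14.5 to 120.8.

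**Figure D3:**
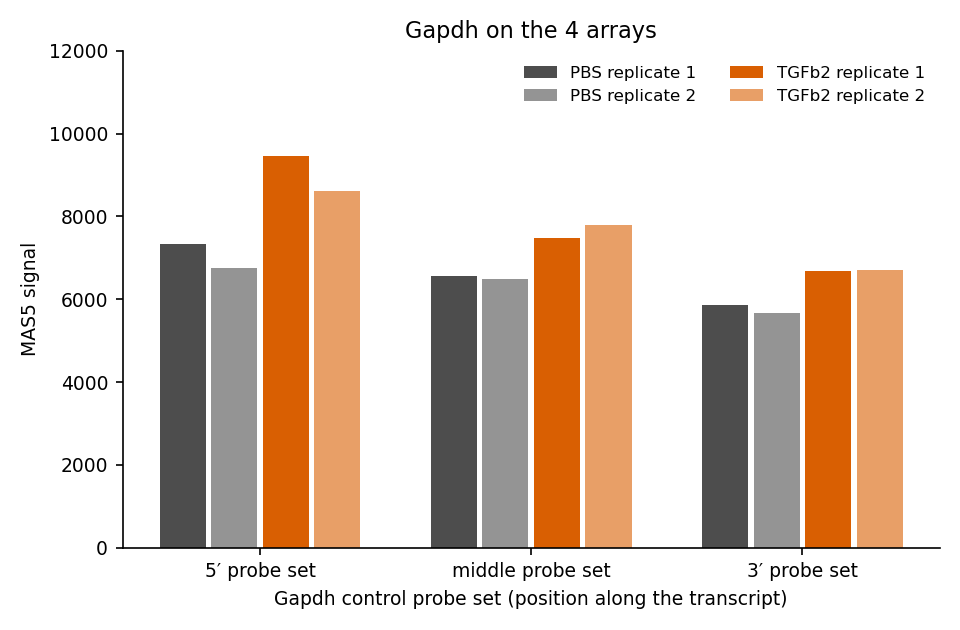
MAS5 signal (y axis, linear, from 0) of the 3 Gapdh control probe sets of the mRNA strand (x axis), 1 bar for each array, grey for PBS and orange for TGFb2, paler for replicate 2. Both TGFb2 arrays exceed both PBS arrays in every probe set, for the 5′ one 9454.0 and 8619.1 against 7329.5 and 6760.9.

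Phosphoglycerate kinase 1 (Pgk1), the first ATP-making enzyme, had signals of 1473.7 and 1787.6 in PBS and of 1296.0 and 1370.3 in TGFb2. Both TGFb2 arrays were below both PBS arrays, but the difference of -0.28 (95% interval -0.62 to 0.06, limma adjusted p = 0.521) was close to the gap between the PBS arrays. Phosphoglycerate mutase 1 (Pgam1) had 3182.1 and 3068.3 in PBS and 3853.7 and 3524.7 in TGFb2. It was higher without overlap, by 0.24 (95% interval -0.02 to 0.50, limma adjusted p = 0.479), the opposite sign to its neighbour in the pathway. Pyruvate kinase (Pkm), which makes pyruvate, was higher in both of its probe sets without overlap. The brighter gave 4680.7 and 4613.6 in PBS and 5019.2 and 5176.6 in TGFb2, a difference of 0.13. The other gave 1440.7 and 1432.0 in PBS and 1988.9 and 1551.6 in TGFb2, a difference of 0.29 (limma adjusted p = 0.673 and 0.532). The array does not say which splice form of Pkm was present. Eno2, the neuronal enolase, had 286.2 and 164.0 in PBS and 259.7 and 156.2 in TGFb2. Replicate 1 was above replicate 2 in both groups and the groups overlapped. The difference of -0.10 had a wide 95% interval, from -0.81 to 0.62 (limma adjusted p = 0.939). Eno3, the muscle enolase, had 47.0 and 57.9 in PBS and 57.5 and 68.7 in TGFb2, which overlapped (0.21, limma adjusted p = 0.769).

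Several of these enzymes were among the brightest on the array, where a general shift was present. The 161 tested probe sets with a mean signal of at least 3000 had a median difference of 0.10 and 117 of them were higher with TGFb2. After quantile normalization their median was -0.01 with 77 higher, and after cyclic loess 0.02 with 86 higher. Both methods align the arrays across the range of signals, so a smaller shift of bright probe sets is built into them. The source of the shift was not tested. The 5 members among these bright probe sets (Aldoa, Tpi1, Pgam1, Pkm and Ldha) had smaller or negative differences under both methods. Under quantile normalization and cyclic loess, Aldoa stood at 0.26 and 0.23, Pgam1 at 0.17 and 0.18, Pkm at 0.07 and 0.06, and Ldha, described next, at 0.16 and 0.19. Tpi1 stood at the negative values given above.

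At the pyruvate branch, lactate dehydrogenase A (Ldha), the form that favours lactate, had signals of 5392.6 and 5557.1 in PBS and of 7030.0 and 6207.5 in TGFb2. Both TGFb2 arrays were above both PBS arrays, by 0.27 ± 0.11 (SE, 95% interval 0.02 to 0.52, limma adjusted p = 0.384). Lactate dehydrogenase B (Ldhb), the heart-type form that favours pyruvate, was dim at 76.5 and 63.6 in PBS and 93.9 and 131.4 in TGFb2. It was also higher without overlap, by 0.57 ± 0.22 (SE, 95% interval 0.06 to 1.09, limma adjusted p = 0.374), so both subunits differed in the same direction. A further Ldhb probe set was too dim to test, at 1.2 to 3.8. Pdk1, the kinase that switches pyruvate dehydrogenase off and a known HIF-1 target, had 90.1 and 69.4 in PBS and 63.7 and 58.4 in TGFb2. It was lower without overlap, by a log2 difference of -0.31 (95% interval -0.80 to 0.18, limma adjusted p = 0.640). Pdha1, the catalytic subunit of pyruvate dehydrogenase that the kinase acts on, had 686.2 and 634.9 in PBS and 655.9 and 658.2 in TGFb2. The TGFb2 arrays lay between the PBS arrays, and the difference of -0.01 had an interval from -0.35 to 0.33 (limma adjusted p = 0.994). The estimates of Ldha and Pdk1, both known HIF-1 targets, had opposite signs, but the Pdk1 interval included 0 and neither gene passed the threshold. The part of HIF-1 in either was not tested.

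The pentose phosphate genes did not share a direction either. Phosphogluconate dehydrogenase (Pgd), an NADPH-making enzyme of the oxidative branch, had signals of 1351.5 and 1760.0 in PBS and of 907.9 and 1414.6 in TGFb2. TGFb2 replicate 1 was the lowest, but TGFb2 replicate 2 was above PBS replicate 1, so the groups overlapped (-0.44, 95% interval -0.97 to 0.09, limma adjusted p = 0.525). Its dim probe set had 25.7 and 36.7 in PBS and 18.8 and 18.4 in TGFb2, lower without overlap (-0.45, limma adjusted p = 0.617). Transketolase (Tkt), of the non-oxidative branch, had 730.8 and 955.8 in PBS and 525.9 and 787.8 in TGFb2. It had the same order of arrays as the brighter Pgd probe set, with TGFb2 replicate 1 lowest and PBS replicate 2 highest, and a difference of -0.37 (95% interval -0.89 to 0.15, limma adjusted p = 0.599). Both genes' differences moved with single arrays: without TGFb2 replicate 1 they were -0.12 for Pgd and -0.084 for Tkt, and without TGFb2 replicate 2 they were -0.75 and -0.65. Without PBS replicate 2 they were -0.25 and -0.18. Transaldolase (Taldo1), its partner in that branch, had 1085.5 and 1325.1 in PBS and 1408.2 and 1447.0 in TGFb2. It was higher without overlap, by 0.25 (95% interval -0.09 to 0.59, limma adjusted p = 0.587).

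Among the hypoxia genes, 1 of the 6 tested genes separated the groups by its brightest probe set, against 2471 of all 5639 tested genes. Hif1a had 2 probe sets, both of a type whose probes can match related transcripts. The one with the higher mean gave 1745.8 and 1646.8 in PBS and 1736.6 and 2071.6 in TGFb2, a difference of 0.16. The other gave 1828.3 and 1693.8 in PBS and 1451.1 and 2015.2 in TGFb2, a difference of -0.04. Both overlapped (limma adjusted p = 0.717 and 0.963), and their intervals ran from -0.16 to 0.48 and from -0.44 to 0.36. HIF-1 activity is known to be set mainly through the stability of this protein, which arrays do not measure. Egln1, the prolyl hydroxylase that marks HIF for destruction in oxygen, had 190.6 and 194.0 in PBS and 166.7 and 190.3 in TGFb2. It was lower without overlap, with TGFb2 replicate 2 close to the PBS arrays (-0.10, limma adjusted p = 0.880). Bnip3, a mitophagy receptor induced in hypoxia, had 98.6 and 99.4 in PBS and 123.2 and 77.5 in TGFb2. The TGFb2 arrays enclosed the PBS arrays (-0.01, limma adjusted p = 0.994).

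P4ha1 and P4ha2 encode the catalytic subunits of the enzyme that hydroxylates prolines in collagen, and both are known to respond to hypoxia. P4ha1 had 137.2 and 113.2 in PBS and 171.6 and 137.1 in TGFb2. TGFb2 replicate 2 lay just below PBS replicate 1, so the groups overlapped (0.27, 95% interval -0.19 to 0.73, limma adjusted p = 0.667). P4ha2 had 134.5 and 120.8 in PBS and 214.7 and 108.1 in TGFb2, the highest and lowest values both being TGFb2 arrays (0.24, limma adjusted p = 0.801). Its dim probe set gave 51.2 and 20 in PBS and 60.9 and 26.4 in TGFb2 (0.22, limma adjusted p = 0.893). Ndrg1, a stress-responsive gene often used as a hypoxia marker, had 908.1 and 568.0 in PBS and 739.9 and 404.9 in TGFb2 by one probe set. The other gave 803.7 and 457.1 in PBS and 698.4 and 386.8 in TGFb2. In both, replicate 1 was above replicate 2 in each group and the groups overlapped (-0.38 and -0.22, limma adjusted p = 0.704 and 0.859).

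For several of these genes the arrays of one group differed more than the groups did. The difference between group means exceeded the mean gap between the 2 arrays of a group in 17 of the 34 members (50%) and in 42.9% of all tested probe sets. The largest gaps were those of P4ha2 (0.90 in its dim probe set and 0.52 in the other), Ndrg1 (0.81 and 0.75), Eno2 (0.72), Pgd (0.50) and Tkt (0.48). Ndrg1, Eno2 and P4ha2 were higher on replicate 1 of both groups, whereas Tkt and the brighter Pgd probe set were lower on replicate 1 of both. The labels do not say what the replicate number stands for.

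**Figure D4:**
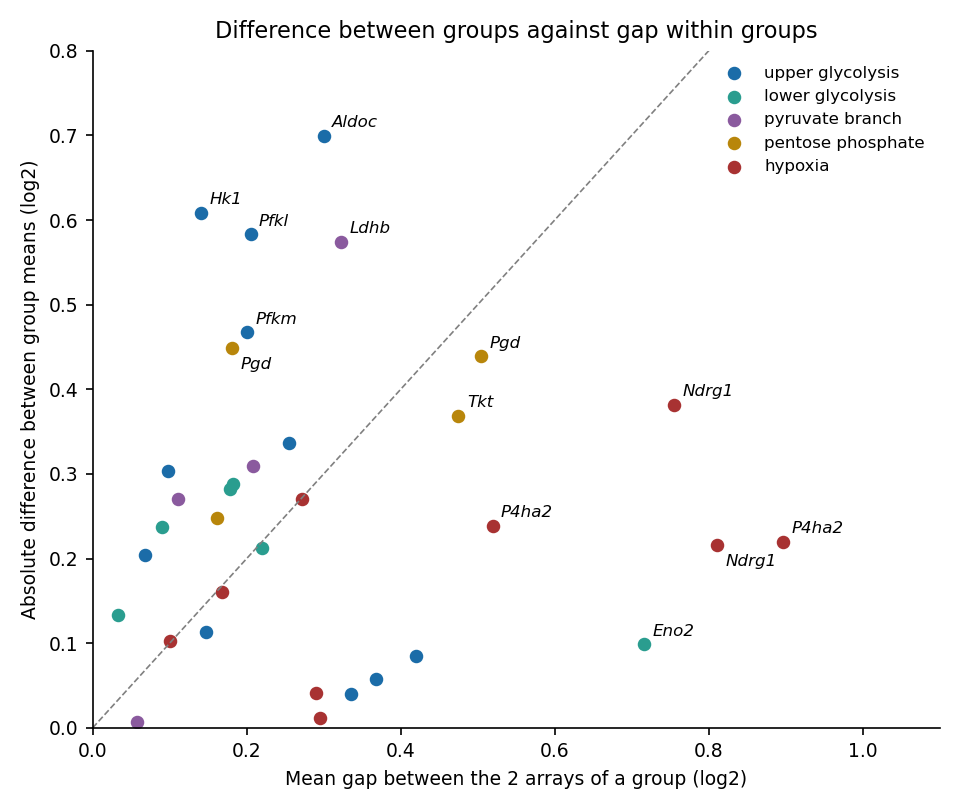
Size of the difference between group means (y axis, log2) against the mean gap between the 2 arrays of a group (x axis, log2) for the 34 tested member probe sets, coloured by step, with a dashed line where the 2 are equal. Hk1, Pfkl, Aldoc and Ldhb lie well above the line, and Ndrg1, Eno2 and P4ha2 (gaps of 0.52 to 0.90) lie below it.

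Fbp1, the enzyme that reverses the phosphofructokinase step in gluconeogenesis, was too dim to test, with 8.1 and 4.8 in PBS and 10.2 and 10.9 in TGFb2. Other genes of the same pathways were then read from lists of related genes, each gene by its brightest tested probe set. Of glucose and lactate transport 0 of 5 tested genes passed (limma; 0 at an unadjusted p under 0.05), with a median difference of 0.02. Slc2a1, the main glucose transporter of many cells and a HIF-1 target, had 319.7 and 264.2 in PBS and 271.6 and 251.4 in TGFb2, which overlapped (-0.15, limma adjusted p = 0.800). Slc16a7, a monocarboxylate transporter, had 73.0 and 77.9 in PBS and 42.1 and 57.4 in TGFb2 and was lower without overlap (-0.49, limma adjusted p = 0.446). Bsg, the chaperone of such transporters, differed by 0.21, and Slc2a8, another glucose transporter, by 0.07 (limma adjusted p = 0.661 for Bsg).

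Of the other glycolysis, glycogen and gluconeogenesis genes 0 of 14 passed (limma; 0 at an unadjusted p under 0.05), with a median of -0.03. The most negative were Gpd1 at -0.48 and Adpgk at -0.46, and the most positive were Pck2 at 0.45 and Galm at 0.30 (limma adjusted p = 0.494 to 0.769). The dimmer tested probe sets of Galm differed by -0.02 to 0.17, each with overlapping groups. Adpgk is a glucokinase that uses ADP, and Pck2 is the mitochondrial enzyme that makes phosphoenolpyruvate. Of pyruvate dehydrogenase and the TCA cycle 0 of 22 passed (limma; 1 at an unadjusted p under 0.05), with a median of -0.04. Idh3g, a subunit of the NAD-linked isocitrate dehydrogenase, had 438.2 and 541.5 in PBS and 283.8 and 357.2 in TGFb2, lower without overlap (-0.59, limma adjusted p = 0.265). Another subunit of the same enzyme, Idh3a, differed by 0.31, and the succinate dehydrogenase subunits Sdha and Sdhb differed by -0.47 and 0.29 (limma adjusted p = 0.443 to 0.670 for these). Idh3g, Idh3a, Sdha and Sdhb were named as the largest and smallest differences of this list, so their opposite signs follow from that choice. The intervals of Idh3a (-0.22 to 0.84), Sdha (-0.96 to 0.01) and Sdhb (-0.04 to 0.62) included 0, whereas that of Idh3g (-1.03 to -0.15) did not. Sdhc and Sdhd, also succinate dehydrogenase subunits, differed by 0.11 and 0.004, with overlapping groups. Whether subunits of one enzyme differed from each other was not tested. Of the other pentose phosphate and NADPH genes 0 of 7 passed (limma; 1 at an unadjusted p under 0.05), with a median of 0.09. Gsr, the glutathione reductase that uses NADPH, had 391.3 and 489.5 in PBS and 231.6 and 361.3 in TGFb2, lower without overlap (-0.57, limma adjusted p = 0.402). Prps1 differed by -0.23, H6pd by 0.16 and Rpia by 0.13 (limma adjusted p = 0.704 to 0.827).

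Of the other HIF pathway and hypoxia targets 1 of 22 passed (limma; 4 at an unadjusted p under 0.05, 1 higher and 3 lower), against 1.18% of all tested probe sets, with a median of 0.15. Lox, the lysyl oxidase that cross-links collagen and elastin, had 4.1 and 7.4 in PBS and 74.9 and 60.8 in TGFb2. Both PBS signals were below the filter level, so the probe set was tested only because of its TGFb2 signals. It rose by 2.00 (95% interval 1.35 to 2.64, limma adjusted p = 0.0263), a size that the pseudocount sets: it was 3.61 with none and 0.96 with one 4 times as large. The call was lost with no pseudocount (adjusted p = 0.0511), with no filter on dim probe sets (0.107) and when any of the 4 arrays was left out (0.0612 to 0.133, limma). A second Lox probe set differed by 0.45 (limma adjusted p = 0.624). Of the fibroblast and mesothelium list, Fbln2, Col1a1 and Col5a2 rose on the same arrays, Dcn fell by 1.63, and 7 of the 11 tested genes did not pass. Pdgfra, Upk3b and Lum, among those 7, differed by -0.78, -0.55 and -0.44. The rest of the 7, Col3a1, Krt8, Wt1 and Col1a2, differed by 0.86, 0.28, 0.20 and 0.16. By its dimmer probe set Col1a2 rose by 1.86 (limma adjusted p = 0.0175). Of all 16 tested probe sets of this list, in either direction, 6 passed. The part of these cells' markers in the rise of Lox was not tested. P4hb, the partner subunit of the P4ha1 and P4ha2 products, had 554.5 and 624.0 in PBS and 129.1 and 379.5 in TGFb2. It was lower without overlap (-1.34, 95% interval -2.28 to -0.40, limma adjusted p = 0.228), with TGFb2 arrays far apart. Its other probe set was too dim to test, at 31.3 and 21.2 in PBS and 15.9 and 13.9 in TGFb2. Cited2, a HIF-induced inhibitor of HIF, differed by -0.61, and Pdgfb, a growth factor, by 0.40 (limma adjusted p = 0.227 and 0.599). Vegfa, the best-known HIF target, was below the filter at 24.3 and 8.6 in PBS and 27.1 and 21.0 in TGFb2. It was 1 of 7 genes of this list too dim to test. Of these, Ddit4 (4.8 and 3.6 in PBS, 71.3 and 21.0 in TGFb2) was higher without overlap. So was Car12 (21.7 and 15.2 in PBS, 37.6 and 22.7 in TGFb2), and Adm (12.7 and 12.2 in PBS, 3.7 and 2.3 in TGFb2) was lower. In Vegfa, Arnt2, Mif and Nos2 the groups overlapped. For comparison, the groups did not overlap in 42.8% of all tested probe sets, and signals this dim are less certain.

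**Figure D5:**
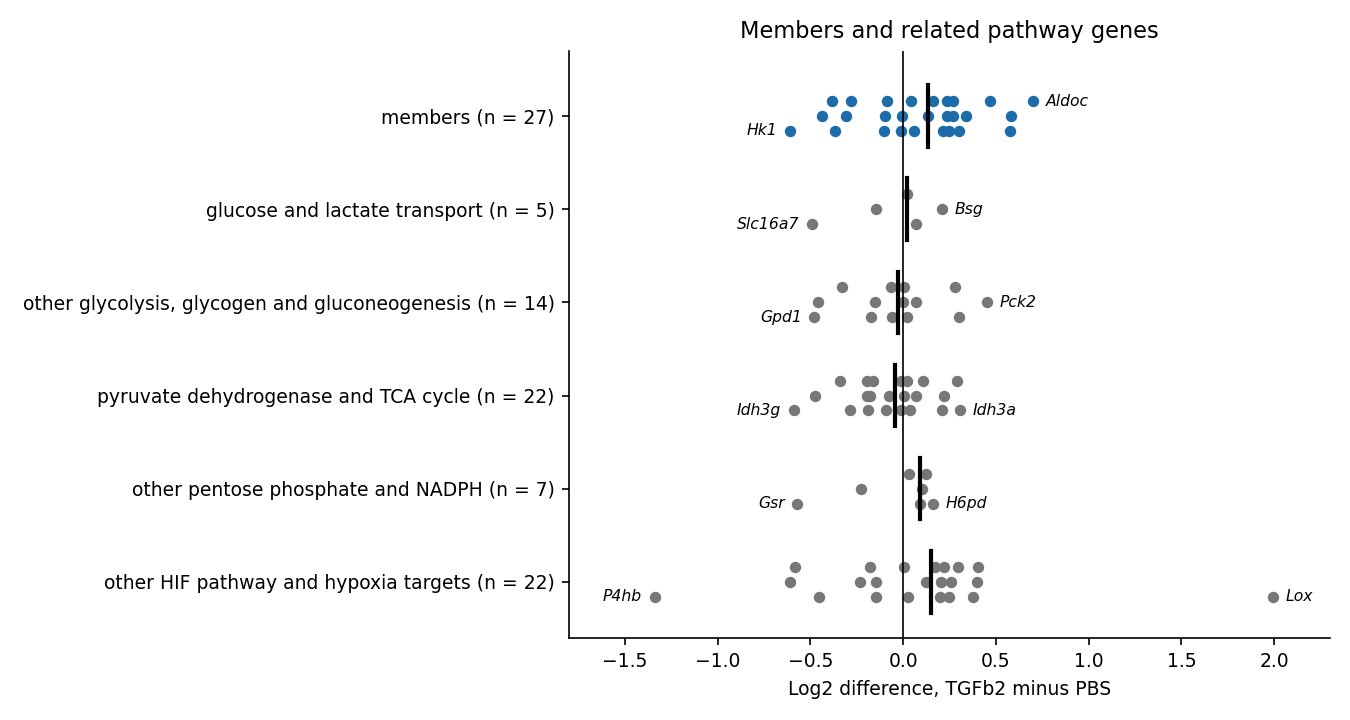
Log2 difference of TGFb2 minus PBS (x axis) for the 27 tested member genes and the tested genes of 5 related lists (y axis), each gene a point by its brightest tested probe set and each median a vertical bar. The list medians lie between -0.04 and 0.15, the members' median is 0.13, and Lox (2.00) is the gene past the threshold.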

How the data were processed

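Biotin-labelled cRNA from the adherent cells was hybridised to Affymetrix mouse arrays, 2 per group. The deposited intensities are MAS5 signals according to the submitters' processing notes, with no version named. Their 2% trimmed mean was 150.1 on each array, so no further scaling was applied. Detection calls and scan dates were not used here, and the number of arrays limits the precision. Probe sets were named from the platform annotation through the gene ID (10855 with 1 symbol, 396 with several and 1237 with none, of 12488). The 29 member genes were all found in the GRCm38.p6 table. Probe sets with several symbols were not named.

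Signals were taken to log2(signal + 15), 15 being 10% of the trimmed mean. The 7453 probe sets with a mean of at least the 40th percentile (24.0 as a signal), without the 66 controls, were fitted in R 4.3.3 with limma 3.58.1 (lmFit, eBayes with intensity trend), two-sided, with Benjamini-Hochberg adjustment over all of them and calls made at 0.05. With 2 residual degrees of freedom, the fit was tested on simulated data with known changes, drawn from its own variance model. At the threshold it recovered 37.55% of 2-fold and 91.35% of 4-fold changes, and 4.589% of its calls were false. Signals of probe sets with the suffixes _f_at, _s_at, _g_at and _r_at are less certain. Members and lists were chosen with earlier results of these data known. All members were named. From each related list the genes past the threshold and the 2 largest and 2 smallest differences were named. Slc2a1, Vegfa, the other dim HIF targets and the fibroblast genes were picked by hand. Alternatives covered the pseudocount, normalization, filter, variance model, replicate number as a block, the choice of probe sets and the omission of each array.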

Additional observations from a re-analysis of the deposited data

How the results depend on the processing

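Standard errors had a median of 0.21 on the log2 scale with 2 arrays a group, and the pseudocount shrinks the differences of dim genes. The count of members past the threshold was 0 under every alternative except the fit with a replicate block, which called 2 (Hk1, adjusted p = 0.0184, and Pfkl, 0.0491, limma) and 320 of all tested probe sets. Same-numbered arrays deviated together with a correlation of 0.149 over all tested probe sets (for the 34 members, the difference of replicate 1 and 2 correlated at 0.60 between the groups), but 2 pairs do not show that the numbers pair the samples. The count over all tested probe sets, 88, was 57 with no pseudocount, 51 with the filter at the 20th percentile, 6 with no filter and 16 with no intensity trend, and 11 to 42 with an array left out. The median of lower glycolysis was 0.074 after quantile normalization, 0.058 after cyclic loess, 0.017 with the filter at the 60th percentile and 0.21 with probe sets averaged. That of the pyruvate branch was 0.082, 0.094 and 0.27 under the first 3 of these. That of upper glycolysis was 0.17 with the filter at the 60th percentile and 0.057 with probe sets averaged.

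The median of all members, 0.13, was 0.074 after quantile normalization, 0.058 after cyclic loess, 0.087 with the filter at the 60th percentile and 0.057 with probe sets averaged. Leaving out single arrays gave medians of 0.086 to 0.24 for all members, -0.65 to -0.084 for the pentose phosphate pathway, -0.11 to 0.16 for the hypoxia genes, 0.14 to 0.39 for upper glycolysis, 0.11 to 0.16 for lower glycolysis and 0.088 to 0.18 for the pyruvate branch, and 23 to 28 members without overlap, since fewer arrays have to separate. Of the 34 members 23 kept their sign under every alternative that tested them. Of the 14 alternatives 8 move a member's estimate (the pseudocount, the normalization and leaving out an array), the others changing only its error or whether it is tested, and the filter at the 60th percentile leaves out 7 members. With all arrays kept, Tpi1 turned to -0.038 (quantile) and -0.018 (cyclic loess), Pdha1 to 0.0068 and 0.0024, and Bnip3 to 0.0086 (cyclic loess); the cause was not tested. With an array left out, these ran from -0.20 to 0.29, -0.061 to 0.048 and -0.30 to 0.28. Others that crossed 0 were Pfkp (-0.33 to 0.16), Eno2 (-0.47 to 0.28), Hif1a (-0.28 to 0.19), Ndrg1 (-0.80 to 0.041 and -0.63 to 0.20), P4ha2 (-0.24 to 0.68 and -0.21 to 0.69) and Pfkfb3 (-0.29 to 0.41).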
